A study of Mus musculus with 12 samples.

Results

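The lysosomal cathepsins and cystatin C are described here over the 12 paw joint libraries of a mouse arthritis study. The 9 genes, Ctsa, Ctsb, Ctsc, Ctsd, Ctsh, Ctsl, Ctss, Ctsz and Cst3, were chosen by symbol among the 52636 gene identifiers of the count table, and all 9 passed the filter on low counts. The K/BxN model transfers serum whose antibodies cause joint inflammation. The first group of 4 mice received K/BxN serum and 6F2, an agonistic antibody against SIRPa, an inhibitory receptor of myeloid cells. The second group of 4 received K/BxN serum and anti-gp120, a control antibody, and the third group of 4 were naive mice given anti-gp120. Each library came from the whole paw tissue of 1 mouse. The mice given serum were sampled at day 7 after its transfer, and the sources used here do not give strain, age or sex. Animals are called 6F2 1 to 4, control 1 to 4 (serum and anti-gp120) and naive 1 to 4, and the numbers pair no animals.

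Cathepsins are proteases that work mostly in the acid interior of lysosomes, where they break down endocytosed and worn-out proteins. Most are cysteine proteases, made as inactive precursors, and macrophages, dendritic cells, osteoclasts and fibroblasts make several of them. In inflamed joints, secreted cathepsins can cleave collagen and proteoglycan. Cystatin C, the product of Cst3, is a secreted inhibitor that binds and blocks cysteine cathepsins, but not the aspartic protease cathepsin D or the serine carboxypeptidase cathepsin A.

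The 3 promoter windows shown hold the motifs discussed here: one belongs to the cathepsin with the largest change, and the others to the cathepsins with the smallest changes. Each runs from 250 bases before to 50 bases after a RefSeq start site on GRCm38.p6, 5′ to 3′ on the gene's strand. Capitals mark matches on either strand to CACGTG, the core of the element bound by the lysosomal regulator TFEB, to GAGGAAGT, a binding sequence of the myeloid factor PU.1, or to a pair of GAAA separated by 2 bases, the core of interferon response elements.
Ctss, chr3:95526536-95526835, plus strand: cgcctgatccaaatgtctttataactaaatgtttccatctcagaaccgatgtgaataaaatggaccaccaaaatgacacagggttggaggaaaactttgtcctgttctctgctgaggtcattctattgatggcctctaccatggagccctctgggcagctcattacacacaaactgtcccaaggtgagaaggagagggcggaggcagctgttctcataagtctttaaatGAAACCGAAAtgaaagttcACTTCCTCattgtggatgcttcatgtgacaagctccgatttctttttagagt
Ctsd, chr7:142387778-142388077, minus strand: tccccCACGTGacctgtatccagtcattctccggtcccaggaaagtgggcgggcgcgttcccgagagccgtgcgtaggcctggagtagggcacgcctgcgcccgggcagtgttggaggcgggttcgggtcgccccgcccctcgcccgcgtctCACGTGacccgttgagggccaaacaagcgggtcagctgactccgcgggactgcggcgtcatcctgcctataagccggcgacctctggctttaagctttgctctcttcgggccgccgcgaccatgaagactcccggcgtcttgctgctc
Ctsa, downstream start, chr2:164833523-164833822, plus strand: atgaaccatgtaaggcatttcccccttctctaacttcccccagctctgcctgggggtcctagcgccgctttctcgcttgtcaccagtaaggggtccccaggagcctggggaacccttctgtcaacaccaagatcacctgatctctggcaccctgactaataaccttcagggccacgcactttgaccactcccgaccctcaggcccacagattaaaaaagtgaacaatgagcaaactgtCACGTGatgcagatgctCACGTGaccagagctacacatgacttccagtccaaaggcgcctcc
The RefSeq table held 7 of the 9 genes with 8 windows, and Ctsb and Ctsh had no entry. CACGTG occurred in 7.15% of all 32817 promoters of the table. Among the members it occurred 2 times in Ctsd, 2 times at the downstream start of Ctsa, and 1 time in Ctsl. GAGGAAGT, found in 3.2% of promoters, occurred in Ctss and Ctsc, and the spaced GAAA pair, found in 3.43%, in Ctss. The longer palindrome with GT before and AC after CACGTG, found in 0.326% of promoters, was in none of the 8 windows. The windows of Ctsl and Ctsc, which also held a match, are not shown, and those of Ctsz and Cst3 held no match to any of these motifs. These motifs were chosen after the windows had been read, and a match is a description of the letters, not a binding site.

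Total counts were 13791454 to 17597920 in the 6F2 libraries, 6893969 to 13416033 in the control libraries and 14289363 to 16205593 in the naive libraries. Fibroblast and chondrocyte markers were detected in every group, and 14 skeletal muscle genes took 20.6%, 17.9% and 22.2% of counts in the 6F2, control and naive groups, so muscle was part of the tissue. Libraries also differed within groups. Summed epidermal markers ran from 44.1 CPM (reads per gene scaled to library size) in 6F2 2 to 20090 CPM in 6F2 4, and stood at 41.2 CPM in naive 4. Reads of 1746 smell and taste receptor genes summed to 516 CPM in control 2, 221 CPM in control 4 and 29.1 CPM in control 3. They summed to 11.9 CPM in control 1 and 10.1 to 16.2 CPM in the 6F2 and naive libraries. Controls 2, 3 and 4, the highest here, are also the mice in which most cathepsins lay above the naive range, as given below. What these reads have to do with the cathepsin values was not tested.

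All 9 genes were well covered, with 151 to 8216 counts per library. Per kilobase of exon, Cst3 ranked first with a mean of 299 RPKM over the 12 libraries (TMM-scaled CPM per kilobase), followed by Ctss at 114, Ctsd at 82.7, Ctsb at 63.9, Ctsz at 43.2, Ctsl at 31.2, Ctsa at 17.5, Ctsc at 9.55 and Ctsh at 4.62 RPKM. Among neighbours in this order, Ctsl and Ctsa, and Ctsa and Ctsc, did not overlap over the 12 libraries, and each other pair did. The order depends on the exon lengths used, which merge all annotated exons of a gene. The order of the group means changed at one place: Ctss averaged 96.2 and 179 RPKM in 6F2 and control joints, above Ctsd at 77.6 and 89.2 RPKM, whereas in naive joints Ctss averaged 66.6 and Ctsd 81.3 RPKM. The ranges of Ctss and Ctsd overlapped in each group, at 71.3 to 159 and 73.3 to 82.1 RPKM in 6F2 joints. They were 71.8 to 246 and 76.3 to 109 RPKM in control joints, and 55.2 to 94.4 and 76.9 to 85.2 RPKM in naive joints. In the 6F2 group Ctss was highest in 6F2 1, at 216 CPM, against 96.8 to 112 CPM in the other 6F2 mice.

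**Figure D1:**
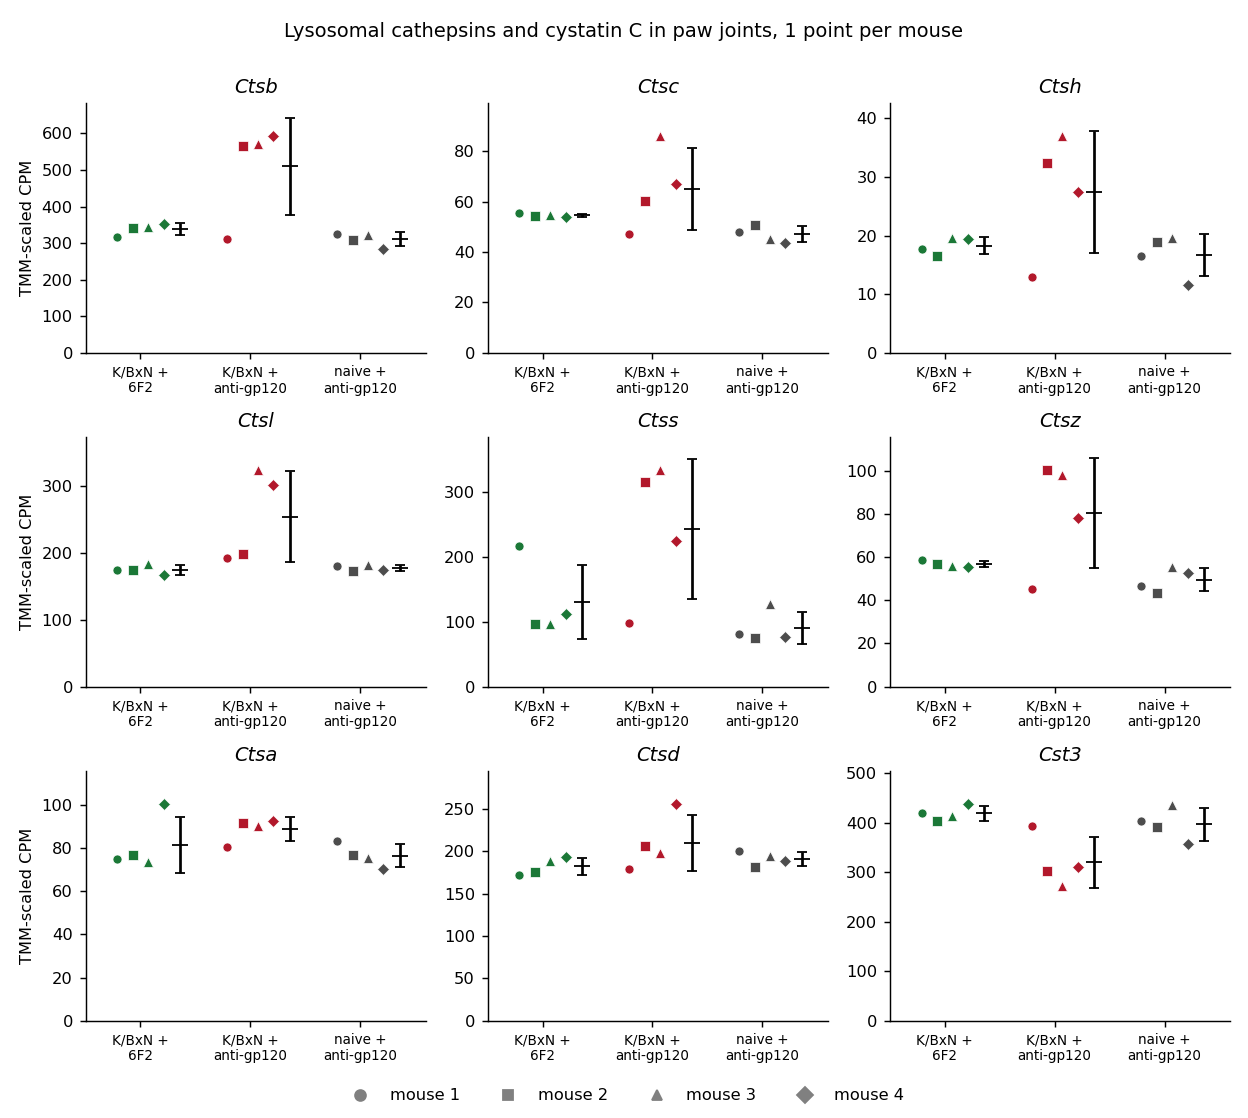
TMM-scaled CPM of the 9 genes (linear y axes from 0) in each mouse of the 3 groups, with group mean ± SD (n = 4). In the control group, controls 2, 3 and 4 lie above control 1 for Ctsb, Ctsh, Ctss and Ctsz and below it for Cst3, and control 1 lies among the naive mice.

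Arthritis under the control antibody was set against naive joints first. Ctss, Ctsb and Ctsz rose, while Ctsl, Ctsc and Ctsh were higher on average without passing the test, Ctsa and Ctsd differed little, and Cst3 was the only one of the 9 with a lower mean. Called means an adjusted p under 0.05 in edgeR's quasi-likelihood test, with Benjamini-Hochberg adjustment over 16674 genes. By this rule 3 of the 9 were higher, where 5.87% of all genes tested were called higher, 4.45% lower and 10.3% in either direction. At an unadjusted edgeR p under 0.05 there were 6 higher and 1 lower, beside 16.1% and 12.2% of all genes. The median log2 fold change of the 8 cathepsins was 0.61 (range 0.13 to 1.42), against 0.03 over all genes.

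Ctss encodes cathepsin S, a cysteine endopeptidase of antigen-presenting cells that trims the invariant chain of MHC class II and stays active at neutral pH. It had 97.5, 315, 334 and 225 CPM in controls 1 to 4, against 81.8, 75.0, 128 and 76.9 CPM in naive mice 1 to 4. Controls 2, 3 and 4 exceeded every naive mouse, and control 1 lay below naive 3. The log2 fold change was 1.42 ± 0.39 (SE), a 2.69-fold increase (95% interval 0.58 to 2.27 on the log2 scale; edgeR adjusted p = 0.041). Leaving out single libraries, the call held without naive 3, control 1, 6F2 1 or 6F2 4 only, and the edgeR adjusted p ran from 0.00329 to 0.119.

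Ctsb encodes cathepsin B, a cysteine protease that cuts within proteins and from their carboxyl end. It had 311, 565, 572 and 593 CPM in controls 1 to 4, against 325, 309, 323 and 285 CPM in the naive mice. Control 1 was within the naive range and the other 3 controls were far above it. Ctsb rose by 0.72 ± 0.18 on the log2 scale, a 1.64-fold increase (edgeR adjusted p = 0.0249). The call was lost without any 1 of the naive mice or without control 2, 3 or 4 (edgeR adjusted p up to 0.0824), and the p fell to 5.88e-05 without control 1.

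Ctsz encodes cathepsin Z, also called X, a carboxypeptidase abundant in myeloid cells. It had 45.2, 101, 98.3 and 78.3 CPM in controls 1 to 4, against 46.7, 43.6, 55.5 and 52.6 CPM in the naive mice. Controls 2, 3 and 4 again stood above all naive mice, and control 1 among them. Ctsz rose by 0.70 ± 0.19 (edgeR adjusted p = 0.0387), a call that held without control 1 (9.31e-05) and was lost without any other single library (edgeR adjusted p from 0.0502 to 0.121). The exons of Ctsz overlap Nelfcd on the opposite strand, which averaged 19.3 ± 2.24 CPM in control and 21.2 ± 3.37 CPM in naive joints (SD, n = 4 each). The sources used here do not give the strand setting of the counting.

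Ctsl, Ctsc and Ctsh are cysteine proteases that cut as an endopeptidase, a dipeptidyl peptidase and an aminopeptidase in that order, and cathepsin C activates the serine proteases of neutrophil and mast cell granules. Ctsl had 193, 199, 324 and 301 CPM in controls 1 to 4, against 181, 173, 182 and 175 CPM in the naive mice. It was the one member whose control and naive groups did not overlap, which 6.02% of all genes did in the higher direction. Its log2 difference of 0.52 ± 0.16 did not pass (edgeR adjusted p = 0.0531), but passed with DESeq2, with a stricter count filter, and without control 1 or 2.

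Ctsc had 47.0, 60.0, 86.0 and 67.1 CPM in controls 1 to 4, against 48.0, 50.9, 45.3 and 43.7 CPM in the naive mice (log2 difference 0.47 ± 0.15, edgeR adjusted p = 0.0566). Ctsh, the least abundant, had 12.9, 32.4, 37.0 and 27.5 CPM in the controls, against 16.5, 18.9, 19.6 and 11.6 CPM in the naive mice (0.72 ± 0.26, edgeR adjusted p = 0.0906). For both genes controls 2, 3 and 4 lay above the naive range and control 1 within it. Without control 1 both passed, with edgeR adjusted p = 0.00222 for Ctsc and 0.00111 for Ctsh.

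The cathepsins of other catalytic classes had the smallest differences. Ctsa, a serine carboxypeptidase that also protects beta-galactosidase and neuraminidase in the lysosome, had 80.4, 91.8, 90.5 and 92.6 CPM in controls 1 to 4, against 83.4, 77.0, 75.3 and 70.5 CPM in the naive mice. Ctsd, an aspartic endopeptidase, had 179, 206, 198 and 256 CPM in the controls, against 200, 181, 195 and 189 CPM in the naive mice. The groups overlapped for both, and the log2 differences were 0.21 ± 0.12 for Ctsa (95% interval -0.04 to 0.46; edgeR adjusted p = 0.243) and 0.13 ± 0.12 for Ctsd (-0.12 to 0.39; edgeR adjusted p = 0.487). Ctsa shares exons with Pltp on the opposite strand, which averaged 109 ± 29.9 CPM in control and 72.8 ± 11.9 CPM in naive joints (SD, n = 4 each). How much of their shared sequence was counted for either gene was not tested.

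Cst3 had 394, 302, 272 and 310 CPM in controls 1 to 4, against 403, 390, 437 and 358 CPM in the naive mice. Controls 2, 3 and 4 were below every naive mouse, and control 1 was within the naive range. The log2 difference was -0.31 ± 0.13 (95% interval -0.59 to -0.03; edgeR adjusted p = 0.139). Without control 1 it was -0.44 and passed (edgeR adjusted p = 0.0106).

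Across the 9 genes, control 1 lay within the naive range for 7, above it for Ctsl and below it for Ctsd. Control 2 lay above the naive range for 8 genes and below it for 1, control 3 above for 7 and below for 1, and control 4 above for 8 and below for 1, the gene below being Cst3 each time. Over all 16674 genes tested, control 1 lay above the naive range for 22.7% and below it for 21.9%. Controls 2 to 4 lay above it for 31.3% to 37.2% of all genes and below it for 27.1% to 33.8%. Without control 1, 6 of the 9 genes were called higher and 1, Cst3, lower, beside 14.5% and 12.7% of the 17271 genes then tested. DESeq2, with all 12 libraries, called 5 higher, the 3 named above with Ctsl and Ctsc, and Cst3 lower, beside 6.8% and 5.69% of its genes. No member was called when controls 2 and 4 were left out together, nor without naive 4 and 6F2 2, the libraries poorest in epidermal reads. Few genes were called at all in these fits, 1 of 17336 and 166 of 17036 in that order.

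The second comparison set the 6F2 mice against the control-antibody mice, both with serum. All 8 cathepsins had lower means in 6F2 joints and Cst3 a higher mean, but none of the 9 was called, where 1.59% of all genes were called higher, 1.7% lower and 3.29% in either direction. At an unadjusted edgeR p under 0.05 there were 5 lower and 1 higher, beside 13.8% and 10.6% of all genes, and DESeq2 called Ctsb and Ctsl lower and Cst3 higher, beside 4.36% and 3.77% of its genes. The median log2 fold change of the 8 cathepsins was -0.53 (range -0.89 to -0.12), against -0.03 over all genes. This comparison shares the control mice with the first, so opposite signs in the pair are not independent.

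Ctsl had 174, 174, 184 and 167 CPM in 6F2 mice 1 to 4, against 193, 199, 324 and 301 CPM in the control mice, and every 6F2 mouse was below every control (log2 difference -0.54 ± 0.16, edgeR adjusted p = 0.0681). Ctsb had 316, 341, 344 and 353 CPM in the 6F2 mice, against 311, 565, 572 and 593 CPM in the controls, and only control 1 reached down to the 6F2 values (-0.59 ± 0.18, edgeR adjusted p = 0.0703). Cst3 had 419, 403, 415 and 438 CPM in the 6F2 mice, against 394, 302, 272 and 310 CPM in the controls, and every 6F2 mouse was above every control (0.39 ± 0.13, edgeR adjusted p = 0.0996). Groups without overlap occurred in 4.82% of all genes in the lower direction and in 5.18% in the higher direction.

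Ctss had 216, 97.2, 96.8 and 112 CPM in the 6F2 mice, against 97.5, 315, 334 and 225 CPM in the controls. 6F2 1 and control 4 were close, and the other three 6F2 mice lay near control 1 (log2 difference -0.89 ± 0.38, edgeR adjusted p = 0.178). Ctsz had 58.6, 56.9, 55.8 and 55.4 CPM in the 6F2 mice, against 45.2, 101, 98.3 and 78.3 CPM in the controls (-0.51 ± 0.19, edgeR adjusted p = 0.134). The 6F2 mice formed a narrow band between control 1 and the other controls.

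Ctsh had 17.7, 16.4, 19.6 and 19.4 CPM in the 6F2 mice and the same band lay between control 1 and the rest (log2 difference -0.59 ± 0.26, edgeR adjusted p = 0.188). Ctsc had 55.3, 54.1, 54.7 and 53.8 CPM (-0.26 ± 0.15, edgeR adjusted p = 0.296), a coefficient of variation of 1.2% in 6F2 joints, against 25.1% in control joints. Ctsd had 172, 176, 189 and 193 CPM (-0.20 ± 0.12, edgeR adjusted p = 0.309), and Ctsa 75.0, 77.0, 73.5 and 101 CPM (-0.12 ± 0.12, edgeR adjusted p = 0.544). For each of these 4 genes the 6F2 and control groups overlapped. Without control 1, 7 of the 9 genes passed, 6 of them lower (Ctsb, Ctsc, Ctsh, Ctsl, Ctss and Ctsz) and Cst3 higher, beside 12% and 11.1% of the genes then tested.

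The third comparison set 6F2 mice against naive mice, which differ in both serum and antibody. None of the 9 was called, and edgeR called 0 of the 16674 genes (background 0%; 4.05% had an unadjusted p under 0.05, and DESeq2 called 18 genes). No member had an unadjusted edgeR p under 0.05. The log2 differences ran from -0.07 for Ctsd to 0.53 for Ctss, and the 8 cathepsins had a median of 0.13, against -0.01 over all genes. The narrowest 95% intervals were those of Ctsa (-0.16 to 0.34) and Ctsd (-0.32 to 0.19), and the widest that of Ctss (-0.30 to 1.36). Ctsl differed by -0.03 (-0.37 to 0.31) and Cst3 by 0.08 (-0.20 to 0.36). Differences within these intervals are not excluded, so the 6F2 and naive joints were not shown to be equal. Ctsc was the one member whose groups did not overlap, with 53.8 to 55.3 CPM in 6F2 joints and 43.7 to 50.9 CPM in naive joints (0.21 ± 0.15, edgeR adjusted p = 1.0), which 3.04% of all genes did in the higher direction.

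**Figure D2:**
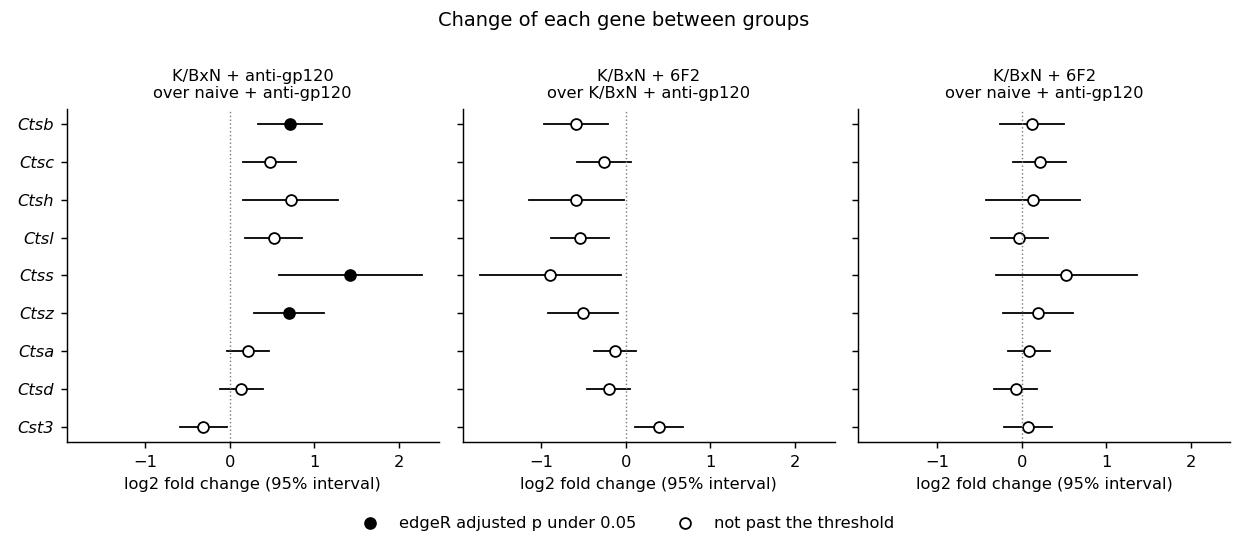
Log2 fold change of each of the 9 genes with its 95% interval in the 3 comparisons, from the edgeR fit to all 12 libraries (filled points: adjusted p under 0.05). Only Ctsb, Ctss and Ctsz in control-antibody arthritis over naive are filled, and the interval of Ctss is the widest in each panel.

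Inhibitor and protease RNA were also set side by side. Cst3 per summed RPKM of the 6 cysteine cathepsins (Ctsb, Ctsc, Ctsh, Ctsl, Ctss and Ctsz) was 1.13, 1.54, 1.57 and 1.58 in 6F2 mice 1 to 4 and 1.59, 0.538, 0.446 and 0.642 in controls 1 to 4. In naive mice 1 to 4 it was 1.71, 1.75, 1.52 and 1.59. On this scale, summed cathepsin RNA exceeded cystatin C RNA per length in 3 of the 12 libraries, controls 2, 3 and 4. Ctss took 54.5%, 34.6%, 34.1% and 37.8% of the cysteine cathepsin RPKM in the 6F2 mice, 36.8%, 52.4%, 51.1% and 43.3% in the controls, and 32.4%, 31.4%, 41.7% and 31.9% in the naive mice. Both measures divide by the length of all annotated exons of a gene merged. That was 1266 bases for Cst3, 1358 for Ctss, 1441 for Ctsz and 4499 to 6489 for Ctsb, Ctsc, Ctsh and Ctsl. The levels of both measures depend on these lengths.

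Markers of macrophages and monocytes moved with the cathepsins, and so did those of fibroblasts and of other cell types. Over the 12 libraries, Pearson r of the cathepsins with the macrophage list (mean log2 CPM) was 0.54 (Ctsd) to 0.94 (Ctsb). With the fibroblast list it was 0.65 (Ctsd) to 0.97 (Ctsb). Of the macrophage and fibroblast lists, Ctsa, Ctsb, Ctsd and Ctsh were nearer to the fibroblast list, and Ctsc, Ctsl, Ctss and Ctsz to the macrophage list. With other lists r was 0.41 (Ctsd) to 0.87 (Ctsb) for neutrophils and 0.48 (Ctsa) to 0.86 (Ctsz) for osteoclasts. It was 0.35 (Ctsa) to 0.87 (Ctsh) for endothelium and 0.21 (Ctsd) to 0.92 (Ctss) for dendritic cells. For skeletal muscle it was -0.90 (Ctsh) to -0.485 (Ctsd). These values single out no cell type. None of the 17 macrophage and monocyte genes was at 0 in any group. Their summed level was 1000, 836, 786 and 923 CPM in 6F2 mice 1 to 4. In controls 1 to 4 it was 619, 1238, 1324 and 1266 CPM. In naive mice it was 655 to 684 CPM. Of the 16 markers tested, edgeR called 11 higher and 0 lower in control-antibody arthritis over naive, beside 5.87% of all genes called higher. Without control 1 it called 16 higher, beside 14.5%. Without control 3 or without naive 4 it called 6 higher, where 412 and 469 genes in all were called. Without naive 4 and 6F2 2, 1 was called, beside 166 of 17036 genes. Without controls 2 and 4, 0 were called, beside 1 of 17336 genes. The summed CPM of the 8 cathepsins per marker CPM was 1.09 to 1.29 in 6F2 joints, 1.27 to 1.56 in control joints and 1.36 to 1.56 in naive joints, and 1.27, 1.32 and 1.30 in controls 2, 3 and 4. Lyz2 made up 26.2% of the marker list. Without it the ratio was 1.71, 1.78 and 1.76 in controls 2, 3 and 4, against 1.77 to 2.00 in naive joints, so that controls 2 to 4 were no longer all below the naive mice. Of the single cathepsins, this ratio was taken for Ctss only. Ctss had 0.216, 0.116, 0.123 and 0.122 CPM per marker CPM in 6F2 mice 1 to 4. It had 0.158, 0.255, 0.253 and 0.178 in controls 1 to 4, and 0.122, 0.110, 0.196 and 0.116 in the naive mice. Controls 2 and 3 were above every naive mouse in that ratio, and controls 1 and 4 within the naive range. In whole tissue, fewer cells of a type and less RNA per cell cannot be told apart.

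Markers of other cell types also differed between libraries. Summed neutrophil markers were 24.6, 33.3, 65.0 and 23.7 CPM in 6F2 mice 1 to 4, 25.5, 391, 174 and 81.5 CPM in controls 1 to 4, and 15.6 to 34.8 CPM in naive joints. In these sums, controls 2, 3 and 4 stood above every other mouse. Of these 10 genes, 7 passed the filter on low counts. Ly6g was at 0 in all 6F2 libraries, where a gene could have up to 3 counts by counting error, and its difference between groups was not examined. Summed fibroblast markers were 14750 to 19230 CPM in 6F2 joints, 12890 CPM in control 1 and 33320 to 47430 CPM in controls 2 to 4, and 12360 to 19720 CPM in naive joints. Osteoclast markers were 246 to 282 CPM in 6F2 joints, 245 CPM in control 1 and 435 to 1180 CPM in controls 2 to 4, and 263 to 341 CPM in naive joints. Dendritic cell markers, led by MHC class II genes, were 592, 156, 224 and 258 CPM in 6F2 mice 1 to 4, 178, 374, 558 and 245 CPM in controls 1 to 4, and 131, 141, 210 and 134 CPM in the naive mice. The mouse with the highest dendritic level in the 6F2 and in the naive group, 6F2 1 and naive 3, was also the highest for Ctss. The part of these cell types in the cathepsin values was not tested.

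**Figure D3:**
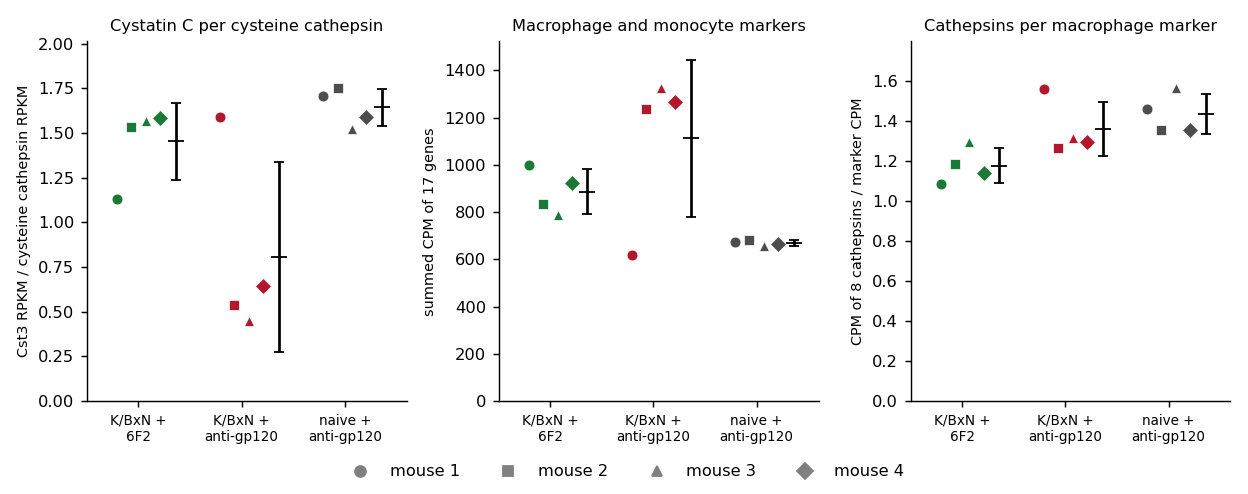
Cst3 RPKM per summed RPKM of the 6 cysteine cathepsins (left), summed CPM of 17 macrophage and monocyte markers (middle) and summed CPM of the 8 cathepsins per marker CPM (right), 1 point per mouse with group mean ± SD (n = 4). Controls 2, 3 and 4 are lowest on the left at 0.446 to 0.642 and highest in the middle at 1238 to 1324 CPM, and lie at 1.27 to 1.32 on the right, below every naive mouse, which control 3 is not when Lyz2 is left out of the markers.

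The rest of the lysosome changed in part. Of 37 other lysosomal hydrolases and activators tested, 6 rose in control-antibody arthritis over naive, Arsa, Gusb, Hexa, Ifi30, Pla2g15 and Prcp, and 0 fell (median 0.25, against 0.03 over all genes). That is 16.2% of the list, where 5.87% of all genes were called higher and 4.45% lower. Ifi30, a thiol reductase that opens disulfide bonds of antigens in lysosomes, had 18.6, 73.8, 78.0 and 45.9 CPM in controls 1 to 4, against 13.0, 14.2, 18.6 and 10.4 CPM in the naive mice. Controls 2, 3 and 4 were well above the naive range (1.94 ± 0.39, edgeR adjusted p = 0.0158). In 6F2 over control joints, where 1.59% of all genes were called higher and 1.7% lower, Ifi30 was the one gene of this list that fell, with 17.7, 11.3, 14.1 and 21.5 CPM in the 6F2 mice (-1.74 ± 0.39, edgeR adjusted p = 0.0403).

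Of 31 lysosomal membrane and proton pump genes, 5 rose over naive, Atp6v1g1, Cd63, Cd68, Npc2 and Tcirg1, and 0 fell (16.1% of the list, beside the same 5.87% of all genes; median 0.13). In 6F2 over control joints, 0 rose and 2 fell, Cd63 (-1.01 ± 0.24, edgeR adjusted p = 0.0428) and the pump subunit Atp6v0b (-0.50 ± 0.11, edgeR adjusted p = 0.0319). Cd68 is also among the macrophage markers and Tcirg1, a pump subunit, among the osteoclast markers. Of 15 genes for sorting, activation and transcriptional control of lysosomal enzymes, 3 rose over naive (20% of the list, beside 5.87%) and 0 fell (median 0.13), and 0 rose and 2 fell in 6F2 over control joints (13.3%, beside 1.7%). With 1 library left out, the medians over naive ran from 0.21 to 0.37 for the hydrolases, from 0.069 (without naive 2) to 0.20 for the membrane and pump genes and from 0.088 (without naive 2) to 0.27 (without control 1) for the sorting genes. M6pr and Igf2r are the receptors that carry newly made lysosomal enzymes by their mannose 6-phosphate tag, and Gnptab encodes the enzyme that begins that tag.

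M6pr had 29.7, 26.7, 24.1 and 35.2 CPM in 6F2 mice 1 to 4, 34.5, 52.4, 63.9 and 42.2 CPM in controls 1 to 4, and 31.8, 31.4, 30.3 and 22.5 CPM in the naive mice. Every control was above every naive mouse, and the 6F2 mice overlapped control 1 (0.73 over naive, edgeR adjusted p = 0.0285; -0.74 ± 0.19 in 6F2 over control, edgeR adjusted p = 0.0481). Gnptab rose over naive by 0.62 (edgeR adjusted p = 0.034) and fell in 6F2 over control joints by 0.68 (edgeR adjusted p = 0.045). Without control 2 and 4 together, or without naive 4 and 6F2 2 together, no gene of these 3 lists was called in control-antibody arthritis over naive. Of all genes, 1 of 17336 and 166 of 17036 were called in these fits. The counts also turned on control 1. Without it 15 hydrolases rose and 1 fell over naive, as did 9 and 2 membrane and pump genes, and 6 and 0 sorting genes, where 14.5% of all genes were then called higher and 12.7% lower. In 6F2 over control joints without control 1, 0 hydrolases rose and 14 fell, as did 4 and 8 membrane and pump genes, and 2 and 6 sorting genes. Of all genes 11.1% were then called higher and 12% lower, and the shares called higher were 12.9% of the membrane and pump list and 13.3% of the sorting list. Leaving out any other 1 library, those called over naive numbered 0 to 4, 1 to 2 and 0 to 2 in the 3 lists, all of them higher, and those called in 6F2 over control joints 0 to 1 in each list, all of them lower.

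Of 8 tested genes of MHC class II presentation, the pathway that cathepsin S serves, 2 rose over naive, the transactivator Ciita (2.08, edgeR adjusted p = 0.0192) and H2-Eb1 (1.75, edgeR adjusted p = 0.0361), and 0 fell (25% of the list, beside 5.87% of all genes called higher; median 1.09). With 1 library left out, 0 to 3 of the 8 rose, and 0 did without naive 1, 2 or 4 or control 2 or 3. In 6F2 over control joints 0 of 8 were called (median -0.13), and in 6F2 over naive joints 0 of 8 (median 1.10). With 1 library left out, the median in 6F2 over control joints ran from -0.58 (without 6F2 1) to 0.24 (without control 3), and was also above 0 without 6F2 2 (0.11). In 6F2 over naive joints it was 0.55 without 6F2 1, whose summed level of this list was 586 CPM, against 151 to 256 CPM in the other 6F2 mice. Of the other cathepsins, 3 of 14 were tested and 0 were called in each comparison. Ctsk, the collagen-cleaving cathepsin of osteoclasts, had 48.5, 57.6, 56.5 and 55.1 CPM in 6F2 mice 1 to 4, 57.3, 374, 180 and 131 CPM in controls 1 to 4, and 58.6, 67.9, 89.1 and 40.2 CPM in the naive mice. Its log2 differences of 1.53 ± 0.46 over naive (edgeR adjusted p = 0.0591) and -1.77 ± 0.46 in 6F2 over control joints (edgeR adjusted p = 0.0623) passed without control 1. Of 8 tested cystatins and other cathepsin inhibitors, 0 were called in any comparison (medians -0.27, 0.26 and 0.10 in the order of the comparisons). The signs of these medians turned with single libraries, to 0.20 without naive 1 in the first comparison, to -0.93 without 6F2 4 in the second, and in the third to -0.90 without 6F2 4, -0.076 without naive 3 and -0.15 without naive 4. They also turned with limma-voom, to 0.21, -0.23 and -0.026.

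**Figure D4:**
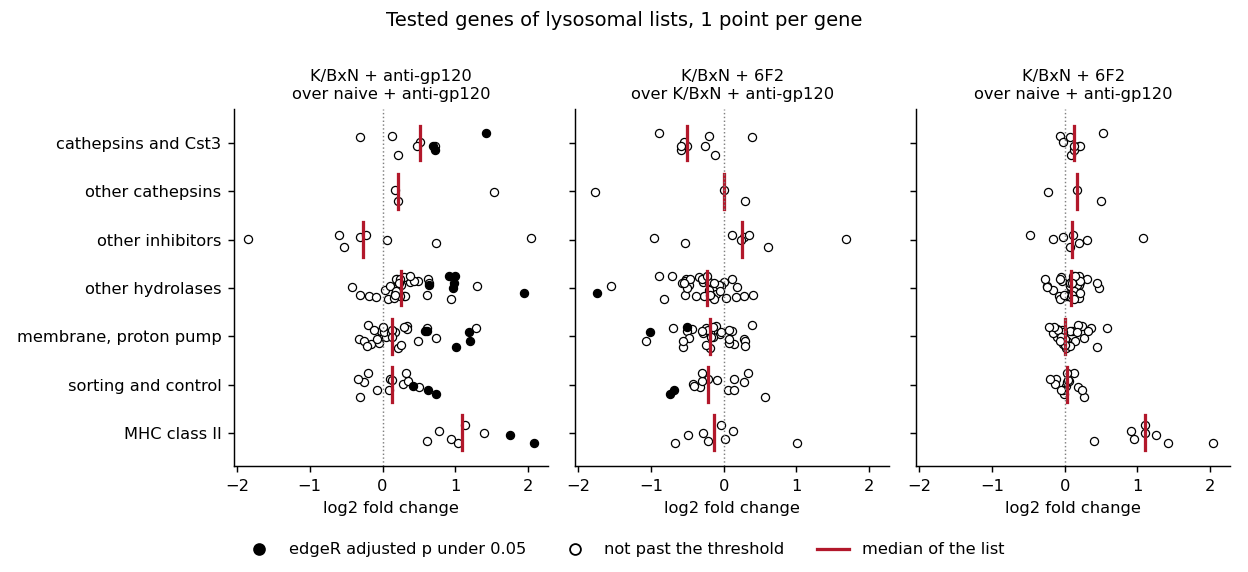
Log2 fold changes of the tested genes of 7 lists in the 3 comparisons, 1 point per gene, with the median of each list as a line (filled points: edgeR adjusted p under 0.05). Filled points lie to the right of 0 in control-antibody arthritis over naive and to the left of 0 in 6F2 over control, none is filled in 6F2 over naive, and MHC class II genes lie to the right of 0 in that panel.

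Over the 12 libraries, likeness was taken as Pearson r of log2 CPM. The 3 nearest genes had r of at least 0.925 for each of 7 cathepsins and r of 0.825 to 0.865 for Ctsd. The genes outside the members nearest to Ctss were Itgb2 (r = 0.97), the integrin chain of leukocytes, Fcgr2b, an inhibitory Fc receptor, and Arhgap30. Those of Ctsz were Camkk2 (r = 0.99), Ssbp4 and Inpp5d, a lipid phosphatase of blood cells. Those of Ctsb were the secreted and matrix proteins Olfml3, Svep1 and Cthrc1 (r = 0.98 to 0.99). Ctsc was nearest to Arrb2, the scavenger receptor gene Msr1 and Sulf1, Ctsh to Shc1, Fam3c and Arf4, and Ctsl to Ampd3, Kri1 and Runx1. Ctsa was nearest to Atad5, Twf1 and Cstb, Ctsd to Harbi1, Ciao2b and Nfxl1, and Cst3 to Mettl27 (r = 0.96), Myoc and Sdf4. Cst3 ran against each cathepsin (r from -0.84 with Ctsb to -0.42 with Ctsa). These are descriptions over 12 libraries that share groups, depth and tissue makeup.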

How the data were processed

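The authors deposited raw read counts per gene, as whole numbers without normalization; per the labels' protocols the libraries were made with a stranded total RNA kit, and the submitters' processing notes name build GRCm38. The aligner, the counting program and its handling of strand and of multiply matching reads are not stated there. The 12 files of single samples equalled their columns in the series table, and identifiers without a symbol in GENCODE M21 held 0.0173% of counts. No 2 libraries of a group agreed within sampling noise (lowest chi-square per gene 8.26). A gene at 0 could have up to 3 counts, or 0.17 to 0.435 CPM, by counting error only.

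Counts were fitted with edgeR 4.0.16 in R 4.3.3 (filterByExpr, TMM, robust quasi-likelihood, 1 coefficient per group, all 12 libraries), which tested 16674 genes at an adjusted p of 0.05 (Benjamini-Hochberg); the biological coefficient of variation was 0.334. SEs were derived from the F statistic. P-values measure the spread between these animals, and no batch is given. The fit was tested on simulated data. CPM are TMM-scaled, and RPKM divide them by the length of all GENCODE M21 exons of a gene merged. Same-numbered libraries of different groups did not deviate together (r from -0.8 to 0.207), so the numbers were not used as pairs. Alternatives were RLE size factors, no filter, at least 1 CPM in 4 libraries, the replicate block, only the groups compared, DESeq2 1.42.0, limma-voom (limma 3.58.1), each library left out, and 2 pairs of libraries left out. The members, gene lists and alternatives were chosen with earlier results of these data known. Named beside the members are the called genes of each list or, per list and comparison, up to 3 genes with the smallest p, Ctsk, and per member the 3 genes most like it by Pearson r of log2 CPM (prior count 2). Promoters are from RefSeq.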

Additional observations from a re-analysis of the deposited data

Results flagged for a closer look

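In each group of 4 mice, the highest and the lowest value of each member were compared with the other 3. By Dixon's 95% critical value for the gap to the nearest mouse, as a share of the group's range, 4 of 27 groups were marked (gaps of 0.872 to 0.899), where chance marks about 1 in 20.

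Ctsa stood at 101 CPM in 6F2 4, against 73.5 to 77.0 CPM in the other 6F2 mice. The epidermal markers were also highest in that mouse, at 20090 CPM, against 44.1 to 353 CPM in the other 6F2 mice. Without 6F2 4 the log2 difference of Ctsa between 6F2 and naive mice was -0.023, where it had been 0.09.

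Ctsb stood at 311 CPM in control 1, against 565 to 593 CPM in the other control mice. Macrophage and monocyte markers were likewise lowest there, at 619 CPM, against 1238 to 1324 CPM. So were fibroblast markers, at 12890 CPM, against 33320 to 47430 CPM.

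Ctss stood at 216 CPM in 6F2 1, against 96.8 to 112 CPM in the other 6F2 mice. In the naive group it stood at 128 CPM in naive 3, against 75.0 to 81.8 CPM. The dendritic cell list was highest in the same mice, at 592 CPM in 6F2 1, against 156 to 258 CPM in the other 6F2 mice. It stood at 210 CPM in naive 3, against 131 to 141 CPM in the other naive mice. MHC class II genes led these sums, since the MHC class II list alone reached 586 CPM in 6F2 1 and 201 CPM in naive 3. The part of these markers in the cathepsin values was not tested.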

How the results depend on the processing

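Of 567 refits of a member's change (27 changes, 21 settings), 506 kept direction and side of the threshold, 40 lost the call, 19 gained it and 2 changed sign. Only 3 of the changes were called to begin with, and all 40 losses were theirs. Of 21 settings each, Ctsb lost its call in 11 and kept it in 10. Ctss lost it in 13 and kept it in 8, and Ctsz lost it in 16 and kept it in 5. The other changes were not called at first and had no call to lose. In control-antibody arthritis over naive, 1721 genes were called, 979 higher and 742 lower, against 486 and 677 with limma-voom and 885 and 802 with RLE size factors. The count was 735 with the replicate block, 435 with only the 2 groups, 2720 with DESeq2, 166 without naive 4 and 6F2 2, 1 without controls 2 and 4, and 412 (without control 3) to 4694 (without control 1) with 1 library left out. Of the members, 0 were called under the block, with only the 2 groups and without either pair, 6 with DESeq2, and 0 to 7 with 1 library left out. The block thus ended the calls of Ctsb (0.68), Ctss (1.44) and Ctsz (0.67). With only the 2 groups their log2 changes were 0.72, 1.43 and 0.71, without naive 4 and 6F2 2 0.67, 1.34 and 0.72, and without controls 2 and 4 0.48, 1.23 and 0.51, none of them called. Ctss lost its call with no filter (1.36), and Ctsz with limma-voom (0.64). Ctsl gained one with the CPM filter (0.53), and Ctsl (0.48), Ctsc (0.44) and Cst3 (-0.34) with DESeq2. Without controls 2 and 4 Ctsd reversed to -0.043. With 1 library left out the ranges were 0.63 to 0.88 for Ctsb, 1.22 to 1.68 for Ctss, 0.58 to 0.89 for Ctsz, 0.30 to 0.59 for Ctsc, 0.53 to 0.95 for Ctsh, 0.37 to 0.62 for Ctsl and -0.44 to -0.25 for Cst3.

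In 6F2 over control joints, the 548 calls became 78 under the replicate block, 0 with only the 2 groups and without either pair, 1713 with DESeq2, 345 with limma-voom and 0 to 3976 with 1 library left out. Members called were 3 with DESeq2 (Ctsb -0.56, Ctsl -0.51, Cst3 0.42) and 0 to 7 with 1 library left out. The left-out ranges were -0.76 to -0.51 for Ctsb, -0.37 to -0.085 for Ctsc, -0.81 to -0.40 for Ctsh, -0.65 to -0.40 for Ctsl, -1.24 to -0.69 for Ctss, -0.69 to -0.38 for Ctsz and 0.32 to 0.52 for Cst3. In 6F2 over naive joints, 4 genes were called with no filter and 18 with DESeq2, none of them a member, and Ctsa ranged from -0.023 to 0.14 with 1 library left out. The cause of these shifts was not tested. With 4 mice a group, changes of the size of Ctsa or Ctsd could not be told from 0. Control 2 had the lowest total, 6893969 counts, with 699 for Ctsa and 1569 for Ctsd, and the part of depth was not tested.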

Other observations

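Among the cathepsins that were too low to test were 8 which in mice are known from the placenta, Cts3, Cts6, Cts7, Cts8, Ctsj, Ctsm, Ctsq and Ctsr, singled out after their counts were seen. Together they had 0 counts in each 6F2 library, 0, 13, 9 and 17 counts in controls 1 to 4, and 0 counts in each naive library. The 3 libraries with counts also held the most reads of smell and taste receptor genes, 516, 29.1 and 221 CPM in controls 2, 3 and 4, against 11.9 CPM in control 1.

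In 6F2 over naive joints the MHC class II genes had a median log2 difference of 1.10 over 8 genes, none of them called, and 0.55 without 6F2 1. H2-Ob, which tempers peptide loading, had 1.29, 1.48, 2.02 and 1.02 CPM in 6F2 mice 1 to 4, 0.165, 1.31, 0.302 and 1.16 CPM in controls 1 to 4, and 0.365, 0.492, 0.211 and 0.307 CPM in the naive mice. Every 6F2 mouse was above every naive mouse (2.05 ± 0.59, edgeR adjusted p = 1.0; unadjusted p = 0.00407 from edgeR), which 3.04% of all genes did. The counts were low, at 22, 23, 28 and 18 in 6F2 mice 1 to 4, 2, 10, 4 and 16 in the controls and 6, 7, 3 and 4 in the naive mice. The naive values were thus near the 3 counts that a gene at 0 could have.

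The coefficient of variation was under 5% in 6F2 joints for Ctsb (4.67%), Ctsc (1.2%), Ctsl (3.94%), Ctsz (2.55%) and Cst3 (3.49%). In control joints it was 26.1%, 25.1%, 26.8%, 31.8% and 16.3% for the same genes in that order, and in naive joints 5.99%, 6.7%, 2.39%, 11%, and 8.26%. These genes were picked by their low value in 6F2 joints. Of the other members, Ctsd had 5.44%, 15.6% and 4.33% in 6F2, control and naive joints, and Ctsh 8.25%, 38.1% and 21.8%. Ctss had 44.1%, 44.5% and 28.0%, and Ctsa 15.7%, 6.42% and 6.96%. The difference in spread between groups was not tested.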
